A study of Mus musculus with 39 samples.

Results

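Collagen chains are the subunits that wind in groups of 3 into the collagens of the extracellular matrix. All probe sets with a single annotated gene symbol of the form Col, a number, a and a number were taken, which gave 82 probe sets of 42 genes among the 45037 probe sets of 18193 genes measured on mouse 3' expression arrays. The rule used only the symbol, though it was chosen with earlier results of these data known. They fell into 11 fibrillar chains with 21 probe sets, 8 basement membrane chains with 15, 5 type VI (beaded filament) chains with 7, 9 fibril-associated chains with 24, 4 membrane-spanning chains with 7, and 5 remaining chains with 8. Fibrillar collagens give connective tissue its tensile strength, and in a ganglion and its nerve they are made mostly by fibroblasts. Basement membrane collagens form the sheets beneath endothelium and around Schwann and satellite glial cells. Sensory neurons are not known as a main source of either, so these chains were taken as a view of the non-neuronal RNA in each sample. Their cellular source was not tested.

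The arrays came from lumbar dorsal root ganglia (DRG). At postnatal day 0 (p0), mice of a mixed 129/C57Bl6 background all carried the TrkCGFP bacterial artificial chromosome transgene, in which GFP is driven by regulatory elements of TrkC, the receptor for the neurotrophin NT3. DRG were dissociated with trypsin and collagenase, and GFP-positive proprioceptors (TrkC GFPon) were sorted from the other cells (TrkC GFPoff) by flow cytometry. Per the methods, the TrkC GFPon cells were also gated by size from their light scatter. For 4 genotypes the L1 to L6 ganglia were pooled and about 350 cells were used per sample: wild-type, Bax-/-, NT3-/-Bax-/- and mlcNT3, a line in which a muscle myosin light chain promoter drives NT3 in muscle, with 2 arrays for each genotype and sign. NT3-/-Bax-/- was set against Bax-/- because both lack Bax, the proapoptotic factor whose loss keeps sensory neurons alive without NT3. Wild-type p0 L1 and L5 ganglia were also sorted one level at a time with about 100 cells per sample, with 2 arrays of L1 TrkC GFPon proprioceptors and 3 of each other group. Whole, unsorted L1 and L5 ganglia were taken from wild-type adults with no wheel or after 5 weeks with a voluntary running wheel, with 3 arrays in each of the 4 groups. The labels give the adults the same mixed background, while the study's methods name C57Bl6 mice, and sample titles name TrkC-positive or TrkC-negative cells although the adult ganglia were not sorted.

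Values are log2 of the normalized array intensity, and a difference of 1 is a doubling. A gene with several probe sets is described by the one brightest over all 39 arrays, and a probe set or chain is called higher or lower where its Benjamini-Hochberg adjusted p from limma, over all 45037 probe sets, is under 0.05. Nothing in the labels says that replicate arrays came from separate litters or animals, so the p-values measure the spread between arrays, which may be technical. In sorted or whole tissue, fewer cells of a type and less RNA per cell cannot be told apart. Array medians lay between 6.02 and 6.18, and replicates of a group were correlated at 0.972 or more, NT3-/-Bax-/- TrkC GFPoff cells being the least alike. Of the 42 chains, 16 lay above the array median on all 16 pooled p0 arrays and 9 on none, and in the adult 22 lay above it on all 12 arrays and 13 on none. The sort followed its labels at every level: in wild-type proprioceptors Ntrk3 (TrkC) was 5.10 ± 0.31 (SE, n = 2 and 2) higher and Scn10a, a nociceptor sodium channel, 5.49 ± 0.52 lower than in TrkC GFPoff cells (limma, adjusted p = 1.8e-06 and 3.8e-05). Levels of Bax and of the NT3 gene were not analysed here.

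Promoter windows from RefSeq (GRCm38.p6) show how differently chains that moved together begin. Windows of 300 bases around the gene start were held for 33 of the 42 chains, and 4 are printed: Col1a2 and Col3a1, fibrillar chains with some of the largest differences below, and Col4a1 and Col4a2, the basement membrane pair transcribed away from each other. They are Col1a2 at chr6:4505368-4505667 (plus strand), Col3a1 at chr1:45311288-45311587 (plus), Col4a1 at chr8:11312777-11313076 (minus) and Col4a2 at chr8:11312555-11312854 (plus). Capitals mark the CCAAT box (CCAAT or ATTGG), the GC box (GGGCGG or CCGCCC) and the TATA letters (TATAAA or TTTATA), and matches of different boxes do not overlap in these windows.
Col1a2: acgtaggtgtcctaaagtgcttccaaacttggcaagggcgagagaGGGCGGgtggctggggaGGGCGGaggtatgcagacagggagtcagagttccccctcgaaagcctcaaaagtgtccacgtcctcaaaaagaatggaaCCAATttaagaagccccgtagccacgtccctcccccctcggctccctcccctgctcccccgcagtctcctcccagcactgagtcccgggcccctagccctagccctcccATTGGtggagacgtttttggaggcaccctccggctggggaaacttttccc
Col3a1: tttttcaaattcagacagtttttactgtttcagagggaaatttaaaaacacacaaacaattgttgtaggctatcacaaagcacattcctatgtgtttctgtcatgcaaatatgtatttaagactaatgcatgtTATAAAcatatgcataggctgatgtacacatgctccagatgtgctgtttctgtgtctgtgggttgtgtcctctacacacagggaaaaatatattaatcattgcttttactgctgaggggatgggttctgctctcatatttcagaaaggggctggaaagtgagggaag
Col4a1: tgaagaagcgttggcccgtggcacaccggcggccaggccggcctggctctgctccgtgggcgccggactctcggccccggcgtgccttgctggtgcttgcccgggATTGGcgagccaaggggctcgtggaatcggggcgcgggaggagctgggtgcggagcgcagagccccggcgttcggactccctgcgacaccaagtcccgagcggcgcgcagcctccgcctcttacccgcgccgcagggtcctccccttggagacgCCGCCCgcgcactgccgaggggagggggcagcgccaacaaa
Col4a2: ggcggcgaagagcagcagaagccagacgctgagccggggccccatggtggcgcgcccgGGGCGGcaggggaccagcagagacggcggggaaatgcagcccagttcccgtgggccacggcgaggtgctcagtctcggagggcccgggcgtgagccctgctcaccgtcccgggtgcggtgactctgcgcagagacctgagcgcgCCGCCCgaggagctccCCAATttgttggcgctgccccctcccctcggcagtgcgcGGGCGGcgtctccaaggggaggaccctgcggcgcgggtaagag
The Col4a1 and Col4a2 windows share 78 bases on opposite strands, chr8:11312777-11312854. Col1a2 held 2 CCAAT boxes and 2 GC boxes, and Col3a1 held 1 match to the TATA letters and neither of the others. Over the 36 collagen windows, CCAAT was found in 36.1% against 37.4% of all 32851 windows, TATAAA in 13.9% against 13.6%, and GGGCGG in 61.1% against 35.7%. These matches describe letters only.

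The first comparison asked which chains distinguish proprioceptors that never had NT3 from those that had it, and what the same genotypes show in the other sorted cells. The greater difference lay outside the proprioceptors. In TrkC GFPoff cells, 23 of 42 chains were higher in NT3-/-Bax-/- than in Bax-/- mice and none was lower. By probe set, 40 of 82 were higher, where 21.7% of all probe sets were called and 9.91% were called higher. The median difference over the 42 chains was 1.22, beside 0.01 over all probe sets.

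Fibrillar chains led. Col1a1, the main chain of type I collagen, read 5.61 and 6.69 in Bax-/- TrkC GFPoff cells and 11.80 and 12.41 in those of NT3-/-Bax-/- mice. It read between 5.34 and 6.37 in all proprioceptor and wild-type groups of the pooled set, and 6.85 and 7.01 in mlcNT3 TrkC GFPoff cells. Both NT3-/-Bax-/- TrkC GFPoff arrays thus stood far above every other pooled p0 array. The difference was 5.96 ± 0.38 (SE, n = 2 and 2; limma, adjusted p = 6.1e-06). Col3a1, the chain of type III collagen, read 6.38 and 8.75 against 13.42 and 13.83. Its difference was 6.06 ± 0.96 (adjusted p = 0.00097), and its dimmer probe set gave 6.77 ± 0.47 (adjusted p = 1e-05). The control arrays lay far apart on the brighter probe set, and the groups did not overlap on either.

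The second type I chain, Col1a2, read 8.96 and 9.95 against 12.98 and 13.50, a difference of 3.78 ± 0.42 (limma, adjusted p = 0.00012). The type V chains, which seed the type I fibril, followed: Col5a2 rose by 3.62 ± 0.39, from 8.29 and 9.43 to 12.01 and 12.95, and Col5a1 by 2.25 ± 0.29, from 7.65 and 8.03 to 9.80 and 10.38. Col11a1, a minor fibril chain best known from cartilage, rose by 3.00 ± 0.56, and Col2a1 and Col27a1 by 1.21 ± 0.28 and 0.96 ± 0.32. In all, 8 of 11 fibrillar chains were higher, with a class median of 2.25. The third type V chain stood apart from its partners: Col5a3 read 7.77 and 7.89 against 7.04 and 7.34 and was not called, and neither were Col11a2 and Col24a1.

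Among type VI chains, which form beaded filaments around cells, 3 of 5 were higher, with a class median of 2.36. Col6a1 read 8.96 and 10.10 against 13.04 and 13.05, a difference of 3.51 ± 0.37 (limma, adjusted p = 8.6e-05). Col6a3 read 6.14 and 6.92 against 10.24 and 11.38, a difference of 4.28 ± 0.40 (adjusted p = 4.2e-05), and Col6a2 differed by 2.35 ± 0.40 (adjusted p = 0.0015). These chains make up the common type VI molecule. Col6a4 and Col6a5, its alternative chains, were not called.

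Of the basement membrane chains, 5 of 8 were higher, with a class median of 1.84. Col4a1 and Col4a2, whose shared promoter region is printed above, rose by 1.77 ± 0.41 (limma, adjusted p = 0.0086) and 2.02 ± 0.45 (adjusted p = 0.007). Col4a1 read 11.09 and 11.70 in Bax-/- and 13.20 and 13.13 in NT3-/-Bax-/- TrkC GFPoff cells, and Col4a2 read 9.04 and 9.48 against 11.36 and 11.20, with no overlap for either. The chains of types XV and XVIII, which carry heparan or chondroitin sulfate and sit at the edge of basement membranes, rose by 2.05 ± 0.19 (Col15a1, adjusted p = 3.5e-05) and 2.71 ± 0.27 (Col18a1, adjusted p = 6.6e-05). Col4a5 rose by 1.91 ± 0.47. Its partners in the specialised alpha-3, alpha-4, alpha-5 network of type IV did not: Col4a4 read 7.71 and 9.42 against 8.33 and 6.10, a difference of -1.35 with overlapping groups (adjusted p = 0.17), and Col4a3 was also lower in the mean and not called.

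The fibril-associated chains, which decorate fibrils, gave 3 of 9 chains higher and a class median of 0.97: Col14a1 by 1.90 ± 0.56, Col16a1 by 1.44 ± 0.29 and Col9a3 by 1.32 ± 0.29. For Col12a1 the probe sets disagreed. The brightest differed by 0.34 and was not called, while a dimmer one read 4.88 and 5.00 against 7.80 and 9.05, a difference of 3.49 ± 0.48 (limma, adjusted p = 0.00043). Of 4 membrane-spanning chains, 1 was higher, Col13a1, by 2.31 ± 0.16 (adjusted p = 1.1e-05). Of the remaining 5, the short-chain collagens Col8a1 and Col8a2 rose by 2.94 ± 0.74 and 1.20 ± 0.32 and Col26a1 by 1.81 ± 0.31.

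**Figure D1:**
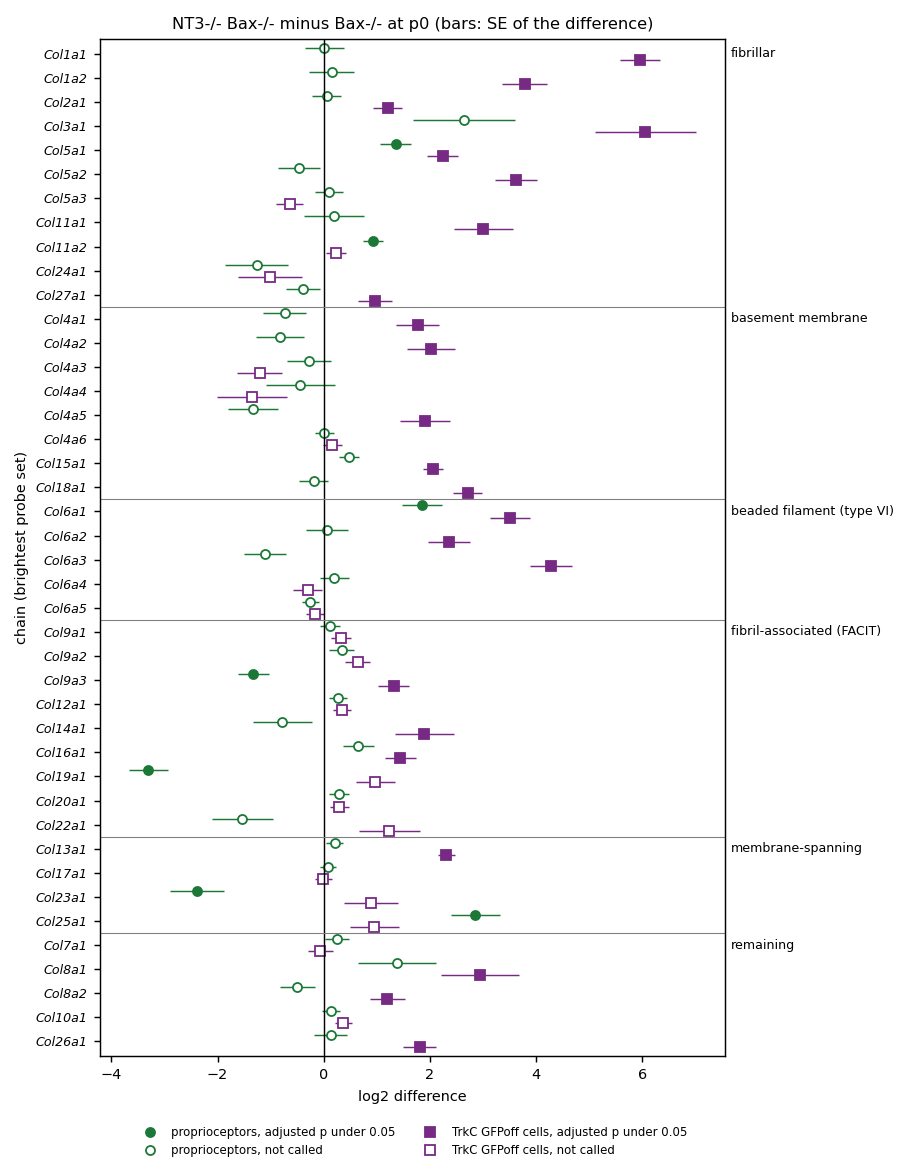
Log2 difference NT3-/-Bax-/- minus Bax-/- for the 42 chains, grouped by class, in TrkC GFPon proprioceptors and TrkC GFPoff cells (2 arrays a group, brightest probe set per gene). Bars are standard errors of the limma fit and filled points have an adjusted p under 0.05; 23 chains are filled to the right of 0 in TrkC GFPoff cells, against 4 to the right and 3 to the left in proprioceptors.

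The genes that handle collagen moved in the same samples. Of 27 genes of collagen synthesis and processing, 11 were higher and 3 lower: Pcolce, an enhancer of procollagen cleavage, by 5.24 ± 0.32 (limma, adjusted p = 6.1e-06), and Loxl1, a crosslinking enzyme, by 3.71 ± 0.32, while Adamts3, a procollagen protease, fell by 3.41 ± 0.77. Of 14 genes of collagen breakdown, 7 were higher, led by the fibroblast protease Fap at 5.19 ± 0.36, the gelatinase Mmp2 at 3.05 ± 0.50 and the inhibitor Timp3 at 2.59 ± 0.34. Of 14 genes of basement membrane partners, 6 were higher, led by Nid2 (nidogen 2) at 3.30 ± 0.32 and the laminin chains Lama2 at 2.26 ± 0.38 and Lama4 at 2.17 ± 0.28. Of 8 collagen receptors only Itga1, an integrin subunit that binds collagen, was called, at 2.58 ± 0.32. Pcolce and Fap thus had differences above 5, as Col1a1 and Col3a1 did.

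Markers of non-neuronal cells differed in the same comparison. Fibroblast markers were higher for 10 of 12, led by Lum at 5.04 ± 0.68, Pdgfra at 4.12 ± 0.24 and Prrx1 at 4.01 ± 0.42 (limma). Their summed linear intensity lay between 19248 and 27168 in NT3-/-Bax-/- TrkC GFPoff cells, against 3241 to 4535 in Bax-/- and 3647 to 4046 in wild-type TrkC GFPoff cells. Endothelial markers were higher for 10 of 10, with sums of 2994 to 3132 against 564 to 766, and mural cell markers for 5 of 8, with sums of 6344 to 8461 against 1542 to 3247. Schwann and satellite glial markers were higher for 5 of 8 and lower for 1, with sums of 25556 to 28354 against 12748 to 13053. Pan-neuronal markers were lower for 3 of 9, among them Elavl4, which fell by 0.83, with sums of 40302 to 48527 against 62817 to 66647. Nociceptor markers were lower for 1 of 3, with sums of 1549 to 3905 against 4740 to 5246. Proprioceptor markers were higher for 1 of 3. The part of these markers in the collagen differences was not tested.

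The 2 NT3-/-Bax-/- TrkC GFPoff arrays were not alike in every respect. Macrophage markers summed to 14593 on replicate 1 and to 486 on replicate 2, and none of 10 was called. Of the 42 chains, 20 had their highest value of all 16 pooled arrays on replicate 2 and 7 on replicate 1. Without replicate 1, Col1a1 differed by 6.26. Without replicate 2, Col1a1 differed by 5.65. Each of these fits left 1 array in the group, which was assumed to vary like the other groups. Against wild-type in place of Bax-/-, 43 of 82 probe sets were higher and none was lower, where 26.5% of all probe sets were called and 12.1% were called higher.

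**Figure D2:**
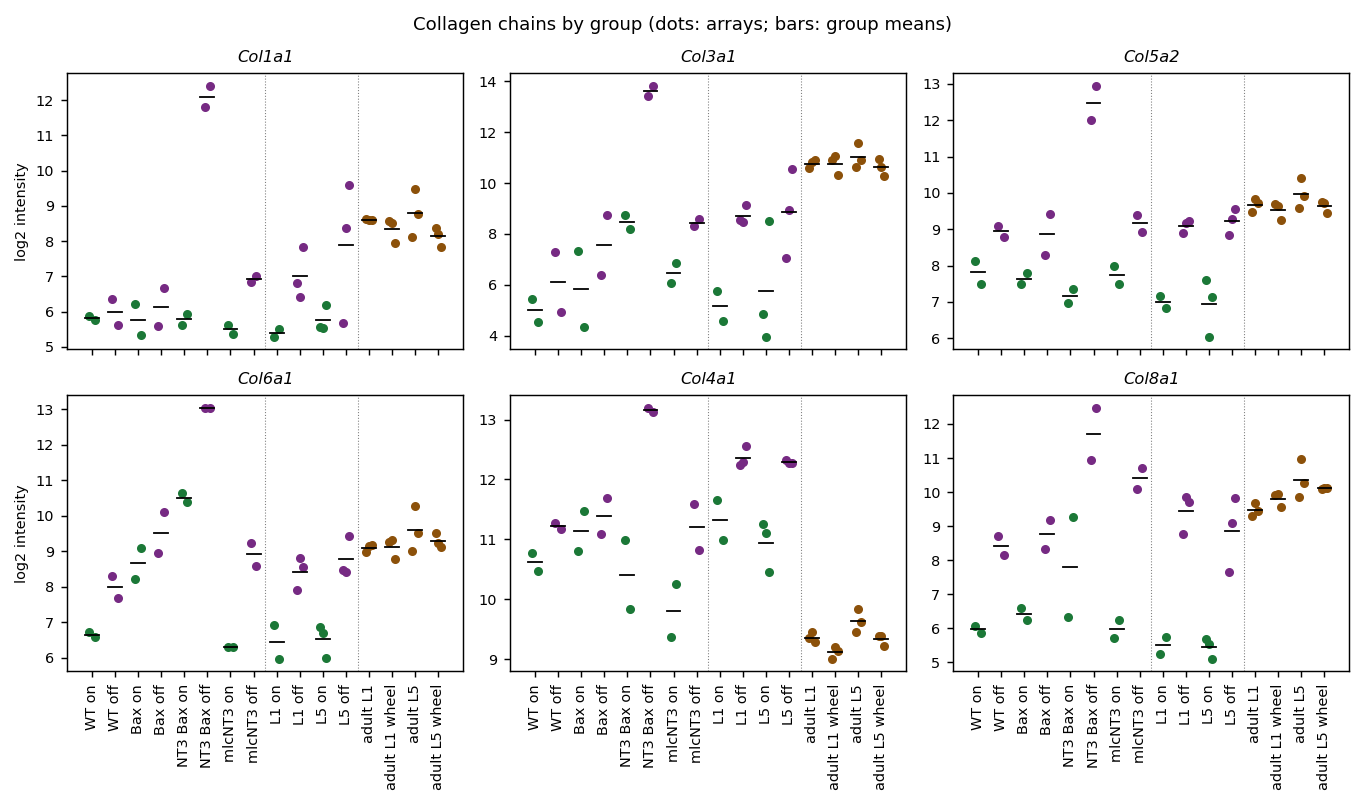
Log2 intensity on each array (dots, one per array) of 6 chains of the matrix, Col1a1, Col3a1, Col5a2, Col6a1, Col4a1 and Col8a1, in the 16 groups, with the mean of each group as a bar: TrkC GFPon (on) in green, TrkC GFPoff (off) in purple and whole adult ganglia in brown; WT is wild-type and NT3 Bax is NT3-/-Bax-/-. NT3-/-Bax-/- TrkC GFPoff cells have the highest group mean in each panel; for Col1a1 their arrays lie at 11.80 and 12.41.

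In TrkC GFPon proprioceptors the comparison of NT3-/-Bax-/- with Bax-/- took another shape. Of 82 probe sets, 5 were higher and 6 lower, or 13.4%, where 18.2% of all probe sets were called. By chain, 4 were higher and 3 lower, and the median over the 42 was 0.07, beside 0.01 over all probe sets. The type I chain Col1a1 did not separate the genotypes: it read 6.21 and 5.34 against 5.63 and 5.94, a difference of 0.01 (limma, adjusted p = 0.99). Col3a1 differed by 2.64 with 1 control array at 7.31 and the other at 4.35 (adjusted p = 0.079), and Col6a3 by -1.10 (adjusted p = 0.078), and neither was called.

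The largest fall among the chains of proprioceptors was in Col19a1, a fibril-associated chain known from hippocampal interneurons and from basement membrane zones. It read 9.05 and 10.19 in Bax-/- and 6.16 and 6.47 in NT3-/-Bax-/- proprioceptors, a difference of -3.31 ± 0.37 (limma, adjusted p = 9.8e-05), and its other called probe set fell by 2.77 ± 0.59. In wild-type proprioceptors it read 9.32 and 9.31, next to the Bax-/- arrays. In TrkC GFPoff cells it read 8.05 and 8.60 in Bax-/-, 7.65 and 8.23 in wild-type and 9.56 and 9.04 in NT3-/-Bax-/- mice, which was higher than wild-type by 1.36 ± 0.37 (adjusted p = 0.017) and differed from Bax-/- by 0.97 ± 0.37 without a call (adjusted p = 0.08). In NT3-/-Bax-/- mice it was thus higher outside the proprioceptors, the reverse of wild-type. Col23a1, a membrane-spanning chain, read 7.68 and 7.58 against 6.07 and 4.41, a difference of -2.39 ± 0.51 (adjusted p = 0.0062), and a second probe set fell by 2.07 ± 0.32. Col9a3 read 7.90 and 8.38 against 6.98 and 6.64 and fell by 1.33 ± 0.29 (adjusted p = 0.0076).

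In the other direction, Col25a1, a membrane-spanning chain of neurons first known from amyloid plaques and required for motor axons to enter muscle, read 7.87 and 7.74 against 10.38 and 10.94. Its difference was 2.86 ± 0.46 (limma, adjusted p = 0.0012), with no overlap, though a second, dimmer probe set differed by -0.16 and was not called. Col6a1 read 8.21 and 9.11 against 10.64 and 10.39, a difference of 1.85 ± 0.37 (adjusted p = 0.0047). Col5a1 rose by 1.36 ± 0.29 and Col11a2 by 0.93 ± 0.20. Both arrays of these proprioceptors lay below the other 14 pooled arrays for Col19a1 and above them for Col25a1.

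Markers of the neurons themselves differed in the same cells. Proprioceptor markers were lower for 2 of 3, Pvalb (-4.62 ± 0.55, limma, adjusted p = 0.00016) and Runx3 (adjusted p = 0.03), while Ntrk3 was not called, and their summed intensity lay between 2547 and 4086 against 11794 to 12634 in Bax-/- proprioceptors. Pan-neuronal markers were lower for 2 of 9, Prph by -1.04 and Isl1 by -0.67. The part of these in the Col19a1 and Col23a1 falls was not tested. Fibroblast markers were called for 1 of 12, Postn, higher by 3.16, and endothelial markers for 0 of 10, while Schwann and satellite glial markers were lower for 4 of 8, S100b by -4.45. Summed fibroblast markers, which include Postn, lay between 9048 and 10774 against 1949 to 3320 in Bax-/- proprioceptors. Of the 27 genes of collagen synthesis and processing, 5 were higher and 6 lower. Lox, the enzyme that crosslinks collagen and elastin, fell by 5.52, from 10.74 and 10.29 to 4.86 and 5.12. Against wild-type in place of Bax-/-, 10 probe sets were higher and 6 lower, where 26% of all probe sets were called. Bax-/- and wild-type proprioceptors themselves differed for 1 probe set, where 0.5% of all were called: Col6a1 was higher by 2.01 ± 0.37 (limma, adjusted p = 0.043), a call that was lost when any of 3 of the 4 arrays was left out and with only the groups compared in the fit.

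**Figure D3:**
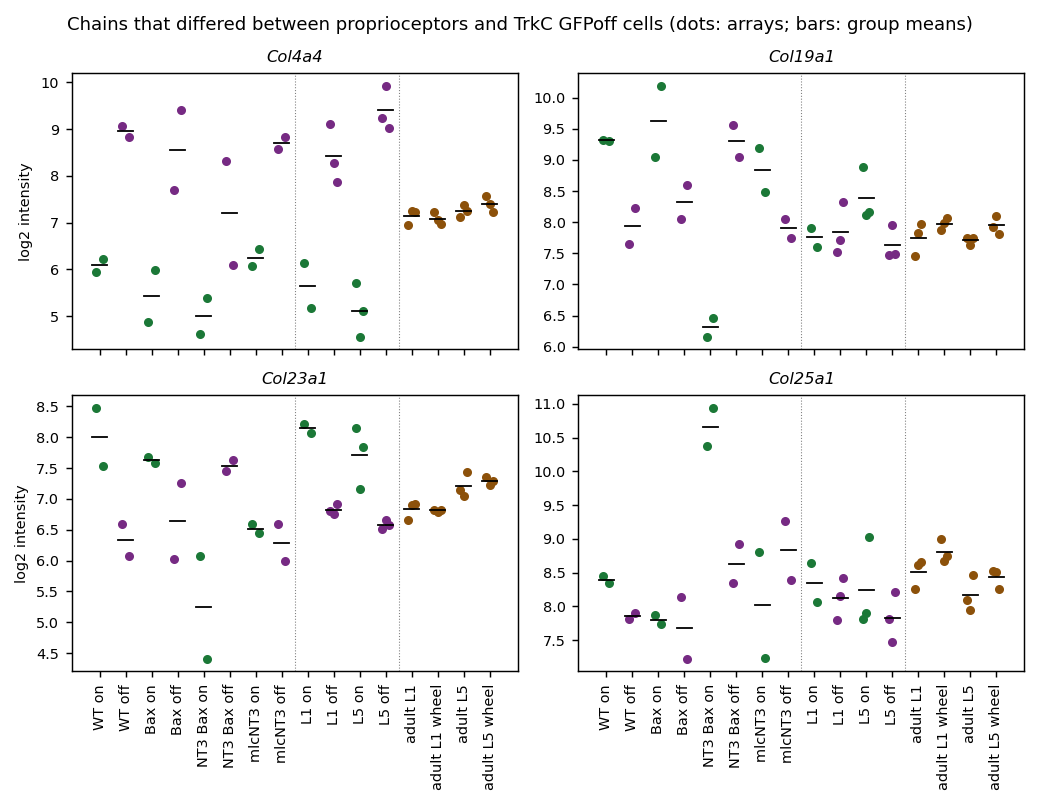
Log2 intensity on each array (dots) of Col4a4, Col19a1, Col23a1 and Col25a1 in the 16 groups, with group means as bars: TrkC GFPon in green, TrkC GFPoff in purple and whole adult ganglia in brown. Col19a1 drops to 6.16 and 6.47 and Col25a1 reaches 10.38 and 10.94 in NT3-/-Bax-/- proprioceptors, while Col4a4 is low in each group of TrkC GFPon proprioceptors.

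Within NT3-/-Bax-/- mice, 46 of 82 probe sets were lower and 1 was higher in TrkC GFPon than in TrkC GFPoff cells, where 19.3% of all probe sets were called and 8.94% were called lower. The one that was higher was Col25a1, by 2.03 ± 0.46 (limma, adjusted p = 0.0081). In Bax-/- mice 4 were lower and 1 higher, where 7.82% were called. The difference between those differences was itself tested as an interaction, and it was called for 32 probe sets, all toward lower values in proprioceptors relative to TrkC GFPoff cells in NT3-/-Bax-/- mice, where 9.65% of all probe sets were called and 5.13% were called in that direction. Set against wild-type it was called for 31, all in that direction, where 10.4% were called. With Bax-/- as control it was -5.94 for Col1a1, -5.38 for Col6a3 and -4.28 for Col19a1. In Col1a1 and Col6a3 the term came mostly from the TrkC GFPoff side, and in Col19a1 mostly from a fall in proprioceptors. The same term was not called for Col6a1 (-1.66, adjusted p = 0.071) or for Col25a1 (1.90, adjusted p = 0.092).

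The next comparison asked which chains separated TrkC GFPon proprioceptors from TrkC GFPoff cells in the genotypes that had NT3. Most chains that differed were lower in proprioceptors, and a few were higher. In the wild-type pooled arrays 5 of 82 probe sets were lower and 2 higher, where 8.95% of all were called. In mlcNT3, 11 were lower and none higher, where 10% were called and 5.84% were called lower. With NT3-/-Bax-/- included, the average over all 4 genotypes gave 42 lower and 1 higher, where 25.8% were called. Averaged over wild-type, Bax-/- and mlcNT3, an average chosen after the data had been seen, 24 probe sets were lower and 4 higher, where 22.5% of all were called and 11.9% were called lower. By chain this was 15 lower and 2 higher, with a median of -0.28 beside -0.03 over all probe sets. The separate single-level arrays gave 19 lower and 4 higher at L1, where 17.9% of all were called and 8.92% were called lower. At L5 they gave 21 lower and 4 higher, where 19.9% were called and 10% were called lower.

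The L1 and L5 comparisons used separate arrays but came from 1 fit, and the labels do not say whether animals were shared. By chain, 15 were called at L1 and 17 at L5, and 13 were called in the same direction at both, which is 86.7% of the first and 76.5% of the second. Of all probe sets, 17.9% were called at L1 and 19.9% at L5, and their overlap was not counted. Of these 13, 12 were also called in the pooled average, an overlap that was not counted over all probe sets either. Col1a2, Col5a1, Col5a2, Col5a3, Col4a1, Col4a2, Col4a4, Col15a1, Col18a1, Col6a1 and Col8a1 were lower in proprioceptors and Col23a1 was higher. The thirteenth was Col26a1, lower by 1.32 ± 0.21 at L1 and by 0.95 ± 0.18 at L5.

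Col4a4, a chain of the specialised type IV network best known from the kidney glomerulus, separated the signs in every genotype. It read 5.95 and 6.23 in wild-type proprioceptors and 9.07 and 8.83 in TrkC GFPoff cells, a difference of -2.86 ± 0.65 (limma, adjusted p = 0.016). At L1 it read 6.13 and 5.17 against 9.11, 8.27 and 7.87, a difference of -2.76 ± 0.44 (adjusted p = 0.001). At L5 it read 5.70, 4.56 and 5.10 against 9.24, 9.93 and 9.03, a difference of -4.28 ± 0.39 (adjusted p = 1.7e-05). No proprioceptor array of these groups reached the lowest TrkC GFPoff array, and the second probe set was also called each time. Its network partner Col4a3 was lower by 2.44 ± 0.37 at L5 (adjusted p = 0.00071) and by 1.24 ± 0.24 in the pooled average, and was not called at L1.

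Col8a1, a short-chain collagen of vessel walls and endothelium, was lower by 3.94 ± 0.52 at L1 (limma, adjusted p = 0.00032) and by 3.41 ± 0.47 at L5 (adjusted p = 0.00034). It read 5.24 and 5.74 in L1 proprioceptors against 8.76, 9.85 and 9.69, and 5.70, 5.53 and 5.10 against 7.64, 9.09 and 9.83 at L5. Again no array of proprioceptors came near the others. The basement membrane pair moved less: Col4a1 differed by -1.04 ± 0.25 and -1.36 ± 0.22, and Col4a2 by -1.36 ± 0.23 and -1.75 ± 0.21, at L1 and L5. Col15a1 differed by -1.45 ± 0.29 and -1.95 ± 0.26, and Col18a1 by -1.07 ± 0.29 and -1.23 ± 0.26. In all, 5 of 8 basement membrane chains were lower at L1 and 6 of 8 at L5.

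Of the fibrillar chains, 5 of 11 were lower and 1 higher at L1, and 4 were lower at L5. Col5a2 read 7.16 and 6.83 against 8.89, 9.17 and 9.22 at L1, a difference of -2.10 ± 0.37 (limma, adjusted p = 0.0023). At L5 it read 7.61, 6.04 and 7.14 against 8.84, 9.29 and 9.56, a difference of -2.30 ± 0.33 (adjusted p = 0.00052). Col1a2 differed by -1.49 ± 0.36 and -1.82 ± 0.33, Col5a1 by -1.13 ± 0.32 and -1.09 ± 0.29, and Col5a3 by -1.48 ± 0.28 and -1.29 ± 0.25. Col1a1 and Col3a1, which led the NT3-/-Bax-/- comparison, were called at neither level. Col1a1 at L5 read 5.58, 5.55 and 6.19 against 5.67, 8.38 and 9.59, with groups that overlapped, and Col3a1 differed by -3.57 ± 1.19 at L1 (adjusted p = 0.063) and -3.08 ± 1.07 at L5 (adjusted p = 0.067). In the pooled average Col1a1 was called, at -0.66 (adjusted p = 0.048). The arrays of L5 TrkC GFPoff cells spread widely for these chains, and replicate 3 held the highest value of the 11 single-level arrays for 8 of 11 fibrillar chains. At L1 Col27a1 was higher in proprioceptors by 0.69 ± 0.18, and Col2a1 lower by 0.73 ± 0.23.

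Col6a1 was the type VI chain called at both levels, and in the pooled arrays it was called in every genotype but Bax-/- (-0.87 ± 0.37, limma, adjusted p = 0.22). It read 6.92 and 5.97 against 7.90, 8.81 and 8.55 at L1, and 6.88, 6.71 and 6.01 against 8.47, 8.41 and 9.44 at L5, a difference of -1.98 ± 0.40 (limma, adjusted p = 0.0052) and of -2.24 ± 0.36 (adjusted p = 0.001). The other chains of the type VI molecule did not share the size of this difference: Col6a2 differed by -0.55 ± 0.17 at L5 (adjusted p = 0.043) and was not called at L1, and Col6a3 was called at neither level.

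Chains higher in proprioceptors were few. Col23a1 read 8.22 and 8.07 against 6.81, 6.76 and 6.91 at L1, and 8.15, 7.16 and 7.83 against 6.51, 6.66 and 6.58 at L5. It was higher by 1.32 ± 0.23 (limma, adjusted p = 0.002) and 1.13 ± 0.21 (adjusted p = 0.0023), and all 3 of its probe sets were called at both levels. The groups did not overlap. In the single pooled genotypes, 1 of the 3 Col23a1 probe sets was called higher in wild-type, 1 in Bax-/- and 0 in mlcNT3. Col19a1 was higher by 1.38 ± 0.37 in the wild-type pooled arrays (adjusted p = 0.035), at 9.32 and 9.31 against 7.65 and 8.23, and by 1.20 ± 0.21 in the average. It did not separate the signs at L1, where the difference was -0.09, and at L5 it was 0.75 (adjusted p = 0.063). Col9a2, a fibril-associated chain, was higher by 0.54 ± 0.14 at L5.

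**Figure D4:**
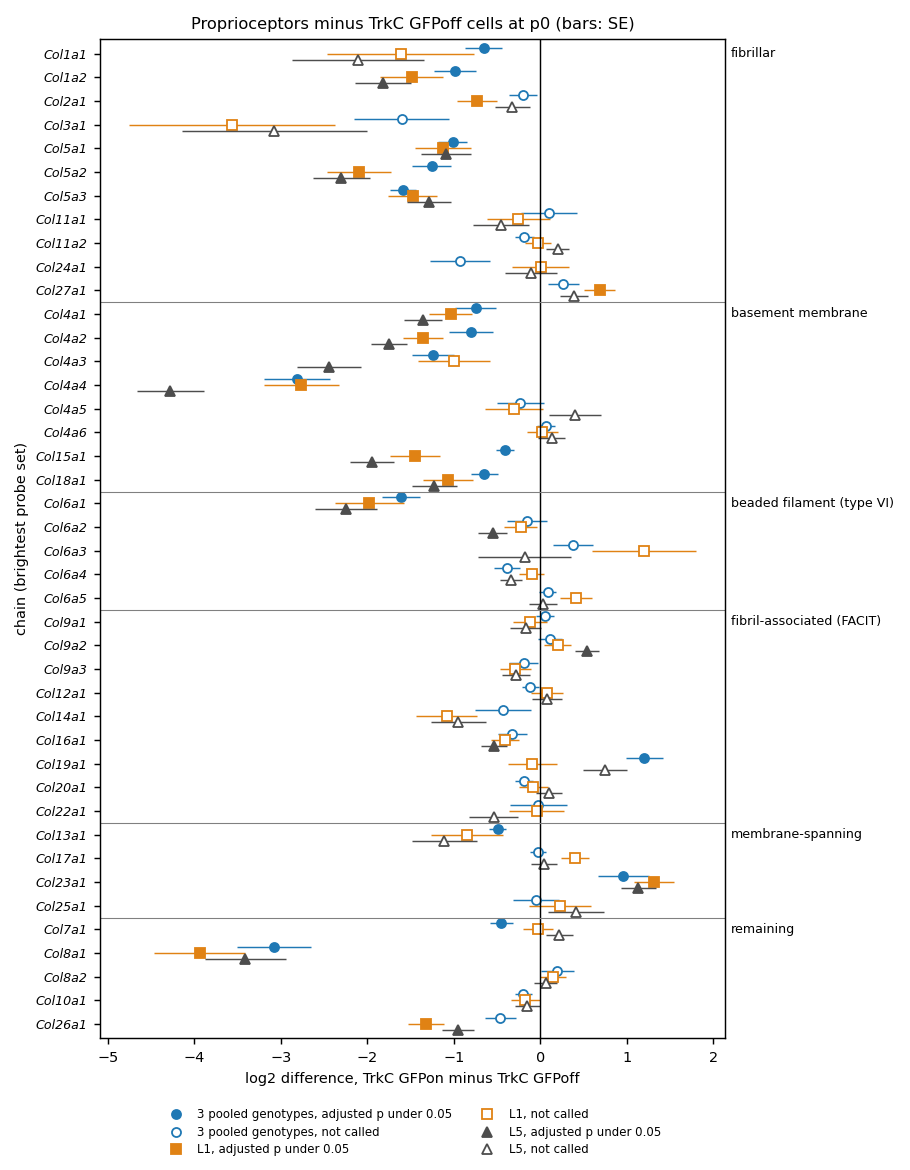
Log2 difference TrkC GFPon minus TrkC GFPoff for the 42 chains by class, in the pooled wild-type, Bax-/- and mlcNT3 arrays averaged, at L1 and at L5. Bars are standard errors of the limma fit and filled points have an adjusted p under 0.05; most filled points lie left of 0, with Col8a1 at -3.94 at L1 and Col4a4 at -4.28 at L5, and Col23a1 lies to the right in each.

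Partner genes and cell markers differed between the signs as well. Basement membrane partners were lower for 7 of 14 at L1 and at L5, led by Lamb2, a laminin chain, at -2.58 ± 0.29 and -2.36 ± 0.26 (limma). Genes of collagen synthesis and processing were lower for 7 and higher for 2 of 27 at L1, and lower for 9 and higher for 3 at L5. Among them Plod1, a lysyl hydroxylase, differed by -2.25 ± 0.18 and -1.62 ± 0.16, Serpinh1, the collagen chaperone, differed by -1.38 ± 0.28 and -1.63 ± 0.25, and Lox was higher in proprioceptors by 3.39 ± 0.23 and 1.76 ± 0.21. Endothelial markers were lower for 7 of 10 at L1 and 10 of 10 at L5, with sums of 448 to 550 against 1137 to 1621 and of 464 to 562 against 1750 to 2026. Fibroblast markers were lower for 5 and 6 of 12, with sums of 1993 to 2662 against 6900 to 7558 and of 1788 to 3000 against 6615 to 7410. Proprioceptors still gave glial marker sums of 7255 to 8826 at L1 and 7836 to 9107 at L5, against 13984 to 17338 and 13068 to 14379. The part of these markers in the collagen differences was not tested.

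The wild-type pooled calls were the least firm: leaving out any 1 of the 4 arrays left at most 1 call of 7. At L1, every fit with 1 array left out gave fewer calls than the 23 with all arrays. Where a proprioceptor array was left out, that group held 1 array. The cause of the drop was not tested.

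Level and excess NT3 gave no calls among the chains of sorted cells. Between L5 and L1, 0 of 82 probe sets were called in proprioceptors, where 0.397% of all were called, and 0 in TrkC GFPoff cells, where 0.16% were called. At an unadjusted p under 0.05 there were 8 and 9 of 82, beside 4227 and 2386 of all 45037. Between mlcNT3 and wild-type mice, 0 were called in proprioceptors, where 0.209% of all were called, and 0 in TrkC GFPoff cells, where 0.00444% were called. Unadjusted, 8 and 10 of 82 had a p under 0.05, beside 2663 and 3205 of all 45037. The methods' t-test at the fold of 1.5 that the study used for mlcNT3, a setting added after the data had been seen, called 3 lower in proprioceptors and 1 higher in TrkC GFPoff cells, and for mlcNT3 and for level it called none after Benjamini-Hochberg adjustment. Bax-/- and wild-type TrkC GFPoff cells gave 0, where 0.178% of all were called, and 8 at an unadjusted p, beside 4726 of all 45037. In mlcNT3 TrkC GFPoff cells Col3a1 read 8.30 and 8.57 against 7.27 and 4.93 in wild-type, a difference of 2.33 ± 0.96 (limma, adjusted p = 0.68), and Col1a1 differed by 0.93 ± 0.38 (adjusted p = 0.68). The interactions of sign with mlcNT3 and of sign with level were called for 0 collagen probe sets each. At an unadjusted p there were 6 and 4, beside 2483 and 3061 of all 45037. Of the genes that act on collagen, Lox was lower in mlcNT3 proprioceptors by 3.21 (adjusted p = 0.00036), at 7.32 and 6.98 against 10.19 and 10.53.

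In whole adult ganglia the question was whether L5, whose nerve serves the hindlimb, differed from L1, and whether running changed either. Without a wheel, 8 of 82 probe sets were higher at L5 and none lower, where 4.68% of all probe sets were called and 1.92% were called higher. With a wheel, 7 were higher and 1 lower, where 5.43% were called and 3.26% were called higher. The median over the chains was 0.13 in both, beside -0.01 over all probe sets. By chain, 6 were called in each state and 3 in both, or 50% of each: Col24a1, Col11a1 and Col23a1. The overlap over all probe sets was not counted.

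Col24a1, a fibrillar chain of bone and cornea, read 5.24, 6.13 and 5.85 at L1 and 6.82, 6.64 and 6.85 at L5 without a wheel, and 6.04, 5.81 and 6.02 against 7.42, 7.20 and 7.30 with one. Every L5 array lay above every L1 array. The differences were 1.03 ± 0.16 (SE, n = 3 and 3; limma, adjusted p = 0.0024) and 1.35 ± 0.16 (adjusted p = 0.00017). Col11a1 read 7.81, 8.14 and 7.92 against 8.43, 8.69 and 8.53, and 8.10, 7.98 and 8.09 against 8.92, 8.81 and 8.76, also with no overlap. It was higher by 0.59 ± 0.10 (adjusted p = 0.0033) and 0.77 ± 0.10 (adjusted p = 0.00029), and its second probe set was called both times. Col23a1 was higher by 0.38 ± 0.10 and 0.47 ± 0.10. For Col12a1, a fibril-associated chain of tendon and fascia, the dimmer probe set was higher by 1.85 ± 0.27 (adjusted p = 0.0014) and 1.33 ± 0.27 (adjusted p = 0.0096), while the brightest differed by 0.06 and 0.13.

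The remaining calls were made in 1 running state each. Without a wheel these were Col8a2 at 1.02 ± 0.23, Col8a1 at 0.89 ± 0.20 and Col4a5 at 0.60 ± 0.13. With a wheel they were Col4a2 at 0.47 ± 0.10, Col5a3 at 0.38 ± 0.08 and, lower at L5, Col7a1, the anchoring fibril chain, at -0.40 ± 0.08. No chain was shown to differ between running states in its L5 minus L1 difference: the interaction was called for 0 of 82 probe sets and for none of all probe sets. At an unadjusted p there were 5 of 82, beside 5169 of all 45037. Replicate 2 of L5 without a wheel held the highest value of the 12 adult arrays for 16 of 42 chains and for 10 of 12 fibroblast and 9 of 10 macrophage markers. Without it, Col8a1 was higher by 0.59 (limma, adjusted p = 0.042), Col8a2 by 0.65 (adjusted p = 0.019) and Col24a1 by 1.09, and Col4a5 was no longer called (0.49, adjusted p = 0.06).

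**Figure D5:**
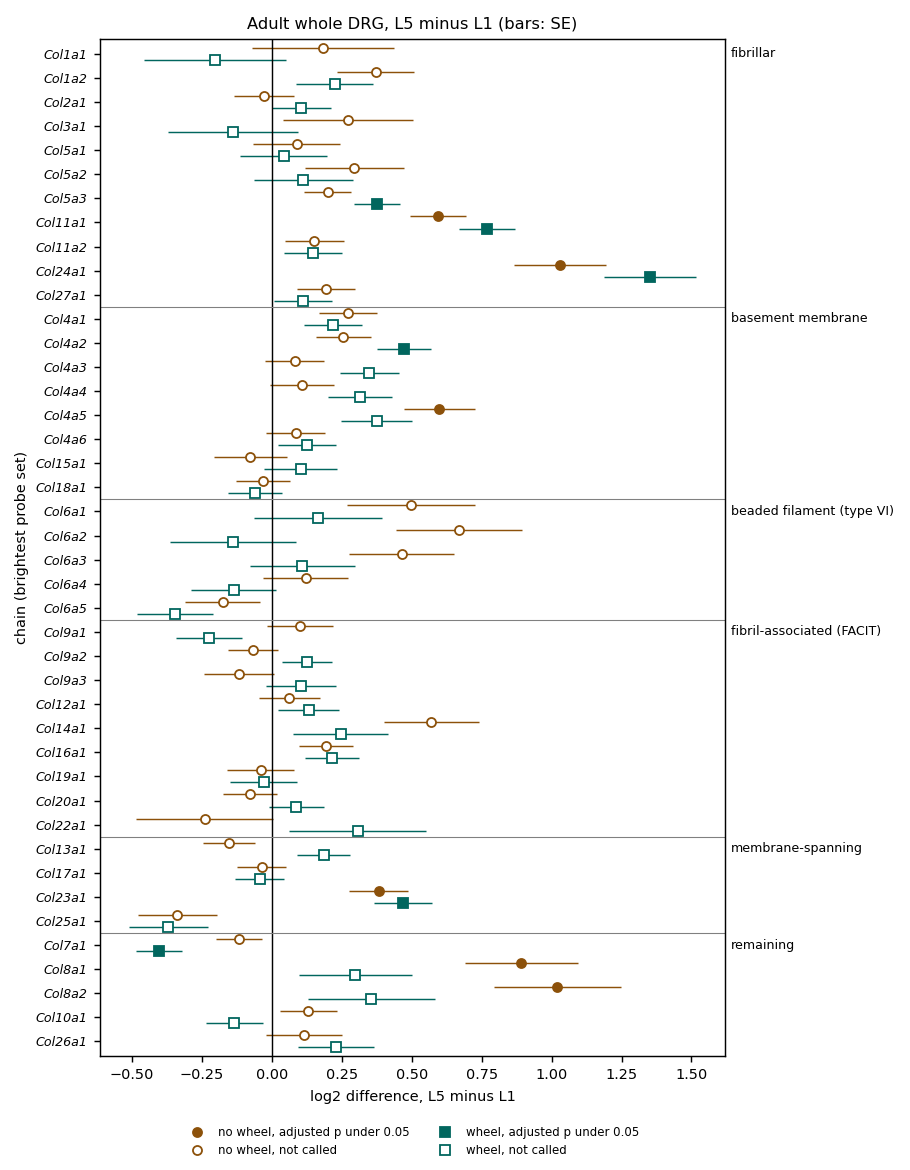
Log2 difference L5 minus L1 in whole adult ganglia for the 42 chains by class, with no wheel and after 5 weeks with a wheel (3 arrays a group). Bars are standard errors of the limma fit and filled points have an adjusted p under 0.05; Col24a1 (1.03 and 1.35) and Col11a1 (0.59 and 0.77) stand to the right in both states.

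The fibrillar chains of type I and III were not called between levels in the adult. Col1a1 read 8.62, 8.61 and 8.59 at L1 and 8.11, 9.49 and 8.78 at L5 without a wheel, and its L5 arrays lay on either side of those of L1. Col1a1 and Col3a1 at L5 differed by -0.65 ± 0.25 and -0.42 ± 0.23 between wheel and no wheel (limma, adjusted p = 0.21 and 0.4). Running was called for 0 of 82 probe sets at L5, where 0.48% of all were called, and for 0 at L1, where 0.242% were called. At an unadjusted p under 0.05 there were 15 and 9 of 82, beside 7367 and 5283 of all 45037. The methods' t-test called 0 after adjustment. Without replicate 1 of L5 without a wheel, 6 collagen probe sets were called lower after running, and L5 minus L1 gave 16 calls in place of 8. These counts stand without the share of all probe sets in the same fits, so they are not read as particular to collagen. Beside the chains, fibroblast markers were higher at L5 for 3 of 12 in each running state, among them Mfap5 by 1.13 and 0.88 and Ogn by 0.77 and 0.62. Comp, a matrix protein of cartilage and tendon, was higher by 2.65 and 2.67. Of 27 genes of collagen synthesis and processing, 3 were higher and 1 lower at L5 without a wheel, and 4 higher and 1 lower with one. Lox was higher by 2.02 and 1.30 and Tll1, a procollagen protease, by 1.79 and 1.88. The proprioceptor genes Pvalb and Runx3 were higher by 0.94 and 1.13 without a wheel. Nociceptor markers were lower for 1 of 3 without a wheel and for 2 of 3 with one. The part of these genes in the collagen differences was not tested.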

How the data were processed

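RNA was amplified and hybridised to Affymetrix mouse arrays, 1 sample per array. The deposited intensities were made by the authors with RMA in the affy package of R (v2.9) and are linear, although log2 values had been foreseen in the plan; per the methods, MAS5 gave present and absent calls, which were not used here. Genome build and separate normalization of array sets are not given in the sources used here. Log2 was taken with no offset. The table held 45101 probe sets, of which the 64 Affymetrix controls were dropped. By GEO's platform annotation, with symbols updated through RefSeq tables, 34945 probe sets had 1 gene, 932 several and 9160 none. The collagen chains and gene lists were chosen with earlier results of these data known.

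limma 3.58.1 (R 4.3.3; lmFit, eBayes) was fitted over all 45037 probe sets separately for the 16 pooled p0 arrays, the 11 single-level p0 arrays and the 12 adult arrays, with 1 mean per group and no covariate. Benjamini-Hochberg adjustment was made over all probe sets within each comparison, and a probe set was called at an adjusted p under 0.05. The scripts were tested on simulated data. Named were 12 fixed chains (types I, III, V alpha-1 and alpha-2, IV alpha-1 and alpha-2, VI, XV and XVIII) and, in each comparison, up to 25 chains with the largest called differences, and of each list up to 3 called genes with the largest differences. Names outside that rule, such as Col4a3, Col5a3 and Lox where not called or further down a list, were chosen after their values were seen. Alternatives were quantile normalization, an offset of 16, a filter on dim probe sets, trended and robust priors, a replicate block, fitting only the groups compared, leaving out each array, the methods' t-test (p not above 0.02 and a fold of 2 at p0 or 1.5 in adults, and, added after the data had been seen, 1.5 for mlcNT3 as in the study), and the median over a gene's probe sets in place of the brightest. The number of arrays limits the precision.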

Additional observations from a re-analysis of the deposited data

Results flagged for a closer look

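The difference between TrkC GFPon and TrkC GFPoff cells was itself different in NT3-/-Bax-/- and Bax-/- mice for 17 chains by a limma interaction term (adjusted p under 0.05), and in each the value in NT3-/-Bax-/- minus that in Bax-/- was negative. Among fibrillar chains it was -5.94 for Col1a1, -4.09 for Col5a2, -3.63 for Col1a2 and -2.81 for Col11a1. Among basement membrane chains it was -3.24 for Col4a5, -2.89 for Col18a1, -2.84 for Col4a2, -2.50 for Col4a1 and -1.57 for Col15a1. For the type VI chains Col6a3 and Col6a2 it was -5.38 and -2.29. It was -2.10 for Col13a1, -1.70 for Col8a2 and -1.67 for Col26a1. Col19a1 at -4.28, Col23a1 at -3.28 and Col9a3 at -2.65 were the ones also called lower in proprioceptors. Others on this list, such as Col6a3, were lower there in the mean without a call. Leaving out Bax-/- TrkC GFPoff replicate 1 left 20 of 32 probe sets called.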

How the results depend on the processing

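No called chain turned its direction under any alternative run, though with the median over a gene's probe sets 70 of 148 chain differences moved by more than their standard error. Calls of single chains were lost for 145 of 156 by the methods' t-test after Benjamini-Hochberg adjustment. They were lost for 40 of 190 with only the groups compared and for 13 of 214 with the offset. Counts of collagen probe sets called follow, with the count as reported first. The share of all probe sets called under each alternative is not set beside them. A shift in count is therefore not read as particular to collagen. TrkC GFPon against GFPoff: wild-type 7, or 27 with only the groups compared, 0 by the methods' t-test after Benjamini-Hochberg adjustment and 3 at its own thresholds; Bax-/- 5, or 8 with the dim filter, 2 with only the groups compared, and 0 and 0 by that t-test; NT3-/-Bax-/- 47, or 29, 0 and 21; mlcNT3 11, or 7 with quantile normalization, 7 with the offset, 30 with only the groups compared and 0 after adjustment of the t-test. The average over 4 genotypes gave 43, or 28 without NT3-/-Bax-/-. At L1 the t-test gave 4 and 14 against 23, and at L5 8 after adjustment against 25. NT3-/-Bax-/- against Bax-/- gave 11 in proprioceptors, or 4 with only the groups compared and 0 and 1 by the t-test, and 40 in TrkC GFPoff cells, or 0 and 12. Against wild-type these were 16, or 0 and 4, and 43, or 0 and 25. The 1 call of Bax-/- against wild-type in proprioceptors became 0 with quantile normalization, the offset, only the groups compared and the t-test at either threshold. For mlcNT3 against wild-type, 0 became 4 (only the groups compared), 1 (t-test with a fold of 2) and 3 (with a fold of 1.5) in proprioceptors, and 1 in TrkC GFPoff cells by the t-test at either fold. The interaction of sign with NT3-/-Bax-/- against Bax-/- fell from 32 to 16 with only the groups compared, and that with mlcNT3 went from 0 to 4. L5 minus L1 in proprioceptors went from 0 to 1 with the offset or the dim filter. In adults without a wheel 8 became 5 with the offset, 4 with only the groups compared and 0 and 4 by the t-test, and with a wheel 8 became 3 and 4. The cause of these shifts was not tested.

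With 1 array left out, counts ran from 0 to 1 in wild-type, 2 to 6 in Bax-/-, 37 to 49 in NT3-/-Bax-/-, 3 to 6 in mlcNT3, 37 to 44 in the average over 4 genotypes, 12 to 22 at L1 and 21 to 31 at L5. They ran from 10 to 14 and 27 to 41 for NT3-/-Bax-/- against Bax-/- (proprioceptors, TrkC GFPoff), 9 to 13 and 35 to 40 against wild-type, 0 to 1 for Bax-/- against wild-type in proprioceptors, 20 to 35 and 22 to 33 for the interactions of NT3-/-Bax-/- with Bax-/- and wild-type, 5 to 16 and 5 to 8 for the adult levels without and with a wheel, and 0 to 6 for running at L5. Where this left 1 array in a group, it was assumed to vary like the other groups. The shares of all probe sets called in these fits are likewise not set beside the counts.

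Nothing in the labels says that a replicate number marks a shared suspension. The correlation of deviations of same-numbered arrays between signs was 0.197 in wild-type, 0.283 in Bax-/-, 0.158 in NT3-/-Bax-/- and 0.008 in mlcNT3, 0.085 to 0.203 at L5 and -0.070 to 0.006 at L1. It was 0.063 to 0.230 between L1 and L5 TrkC GFPoff cells. Not every pair exceeded 0.1, so the numbers were not taken as pairs. With the replicate number as a block, 7 were called in wild-type, 7 in Bax-/-, 12 and 40 for NT3-/-Bax-/- against Bax-/-, 19 at L1, 28 at L5, and 7 and 8 in adults. Between Bax-/- and wild-type TrkC GFPoff cells the correlation was -0.109, and a crossed block gave 0 calls, as did the uncrossed one.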
